A study of Mus musculus with 45 samples.

Results

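Expression of the NF-kB factors and of the signaling components directly upstream of them was examined in adipocytes of 45 female C57BL/6 mice, 1 Affymetrix MG430-2.0 array per mouse. The 10 genes were Nfkb1, Nfkb2, Rela, Relb, Nfkbia, Nfkbiz, Tnfaip3, Irak1, Tnfrsf1a and Ikbkb, and every probe set annotated with 1 of these symbols alone was taken. This gave 24 of 45037 probe sets, covering 9 of the 10 genes, and Nfkb1 was not analysed here. D mice (IR+/- IRS1+/- ApoE-/-) were heterozygous for deletions of the insulin receptor and of IRS1, E mice (ApoE-/-) were not, and every group lacked ApoE. Diets began at 8 weeks of age, and the groups were Western diet for 16 weeks (DW16, n = 9), chow for 16 weeks (DC16, n = 5), Western diet for 8 weeks (DW8, n = 5) and chow for 8 weeks (DC8, n = 7) in D mice, and Western diet for 16 weeks (EW16, n = 8), chow for 16 weeks (EC16, n = 5) and Western diet for 8 weeks (EW8, n = 6) in E mice. The alleles were carried in all cells, and the adipocytes came from parametrial and periovarian fat of random-fed mice.

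NF-kB is a family of transcription factor dimers that sit in the cytoplasm bound to inhibitory IkB proteins. Receptors for TNF and for interleukin 1 signal through adaptors and kinases to the IkB kinase complex, which marks IkB for degradation and releases the dimer to the nucleus. In fat, this pathway is known for inflammatory gene expression in obesity and for its interplay with insulin signaling. Several of its targets, IkB alpha among them, are its own inhibitors.

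All values below are log2 RMA values, differences are in log2 units with the SE of the limma fit, and a probe set is said to be differentially expressed at a Benjamini-Hochberg adjusted p under 0.01 over all 45037 probe sets. Where a gene had several probe sets, that with the highest mean over all arrays represents it. On 10 arrays the deposited values spanned a narrower range than on the other 35, with a 95th percentile of 10.14 to 10.85 against 10.95 to 11.14. These were DW16 mice 1 to 7 and EW16 mice 1 to 3, and no array of the other 5 groups. What set them apart was not tested. The 8 measured adipocyte markers averaged 11.98 to 13.20 in DW16, 11.73 to 13.13 in EW16, 12.84 to 13.26 in DC16 and 12.94 to 13.17 in EC16 mice.

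Each of the 9 representative probe sets had its lowest group mean in DW16 and its next lowest in EW16. Among the other 5 groups the means of a gene lay within 0.05 (Nfkbia) to 0.41 (Irak1) of each other, against within-group SDs of up to 0.47, and no member differed between any of these groups in the tests made. In DW16 the SDs were 0.34 to 0.92. The mean of the 9 genes per mouse was 9.64 to 10.12 in DW16 mice 1 to 7 and 9.55 to 10.10 in EW16 mice 1 to 3, whereas no other array was below 10.86.

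**Figure D1:**
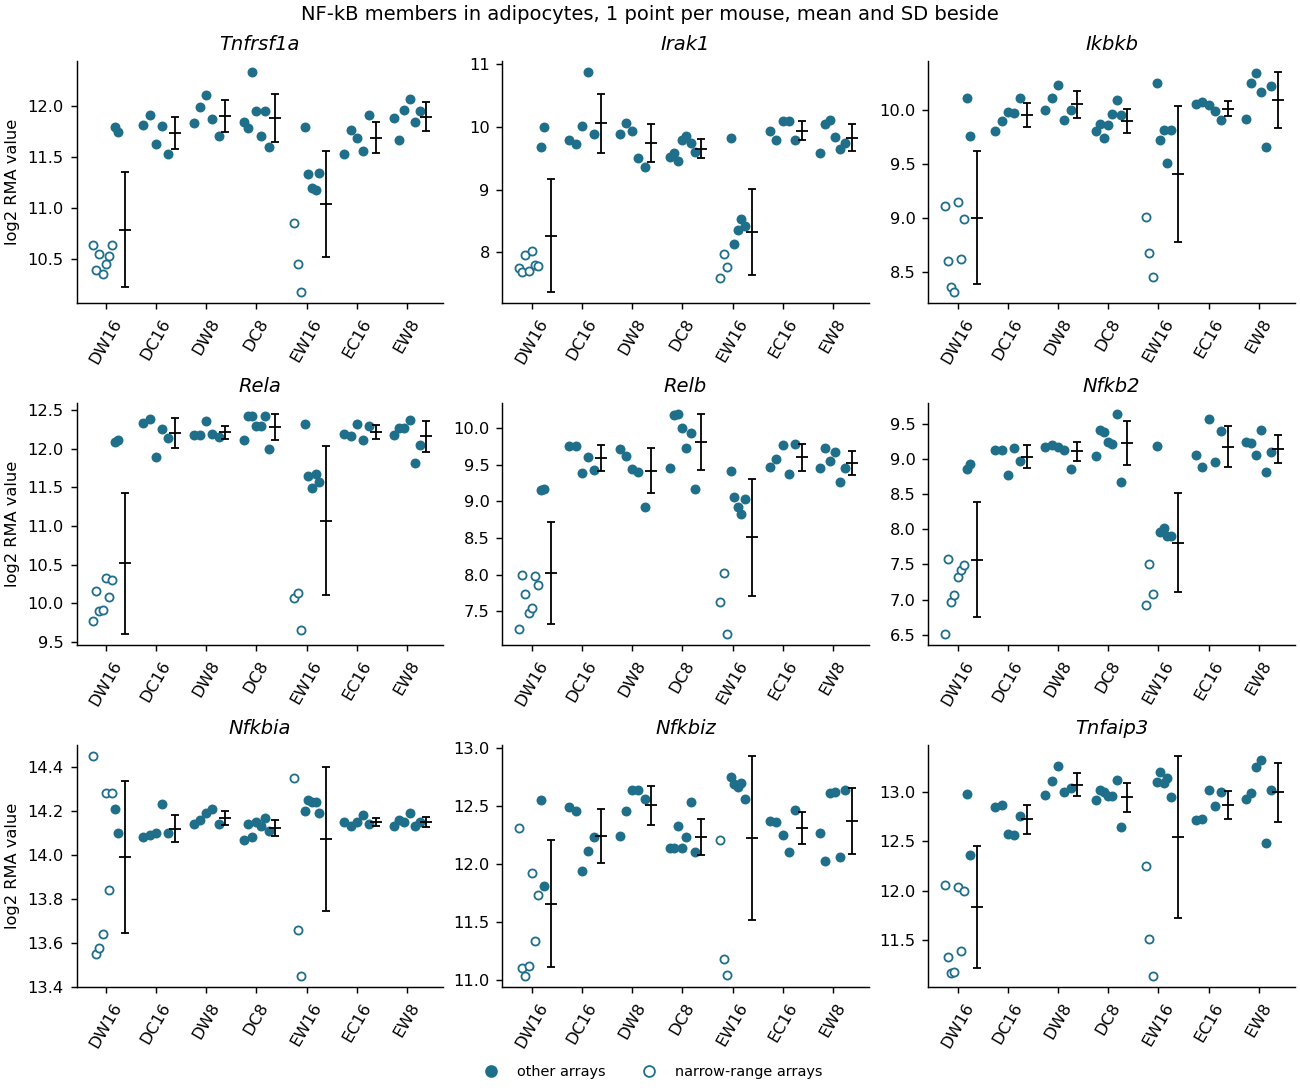
Log2 RMA values (y axes) of the representative probe set of each of 9 genes, 1 point per mouse, in the 7 groups (x axes), with the group mean and SD beside the points. Open symbols are the 10 narrow-range arrays: for Rela, all of them lie at or below 10.33 and all other arrays at or above 11.49.

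**Figure D2:**
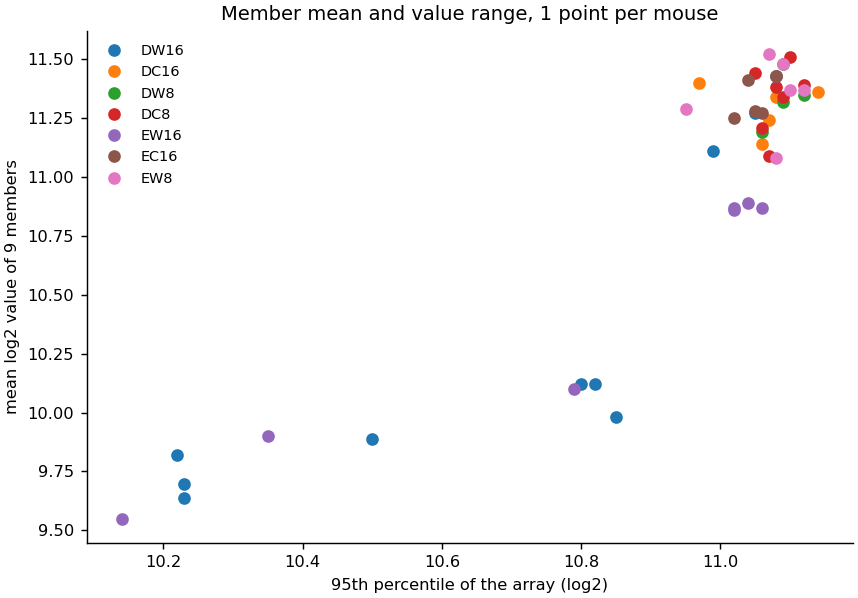
Mean log2 value of the 9 genes (y axis) against the 95th percentile of all values on the array (x axis), 1 point per mouse, coloured by group. The 10 arrays with a 95th percentile of 10.14 to 10.85 carry the 10 lowest member means.

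The first comparison asked how 16 weeks of Western diet changed these genes in D mice. Of the 24 probe sets, 2 were differentially expressed in DW16 against DC16, both lower, where 3.43% of all probe sets were called, 2.63% lower and 0.797% higher. The differences of 22 of the 24 probe sets were negative, against 44.6% of all probe sets, and their median was -0.62, against 0.04 over all probe sets and -0.22 over those above the median level. By mean level the representative probe sets ranked from percentile 81.3 (Nfkb2) to 99.9 (Nfkbia) of all probe sets. The set above the median level also holds dimmer ones, so it is not matched to the members in level. Without the 7 narrow-range arrays, which left 2 DW16 mice, no member and 0% of all probe sets were called, the median was -0.03 and 13 of 24 differences were negative. Fewer cells of a type and less RNA per cell cannot be told apart in such preparations.

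At the receptor level, Tnfrsf1a, the main TNF receptor, had values of 10.35, 10.55 and 11.79 (lowest, median and highest) in DW16 mice, against 11.81, 11.91, 11.62, 11.80 and 11.53 in DC16 mice. DW16 mice 1 to 7 lay at 10.35 to 10.63, below every DC16 mouse, while mice 8 and 9, at 11.79 and 11.74, lay among them. The difference was -0.95 ± 0.24 (adjusted p = 0.0161). In EW16 mice Tnfrsf1a had 10.17, 11.18 and 11.79 (lowest, median and highest), against 11.53, 11.76, 11.68, 11.56 and 11.91 in EC16 mice, a difference of -0.65 ± 0.23 that was not called (adjusted p = 0.0844).

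Irak1, a kinase that relays interleukin 1 and Toll-like receptor signals, had the largest negative difference of the members. Its representative probe set had 7.68, 7.80 and 10.00 (lowest, median and highest) in DW16 mice, against 9.78, 9.73, 10.01, 10.87 and 9.89 in DC16 mice. Again mice 1 to 7 formed a low set, up to 8.02, and mice 8 and 9 had 9.67 and 10.00. In DW16 Irak1 fell by 1.79 ± 0.39 (adjusted p = 0.00976), and without the narrow-range arrays the difference was -0.22 ± 0.29 (adjusted p = 0.911). The call was kept in 2 of 14 fits that left out 1 mouse, those without DW16 mouse 8 or 9, with adjusted p of 0.00102 to 0.0271 over the 14. In EW16 mice the low values were not confined to the narrow-range arrays. Mice 1 to 3 had 7.59, 7.97 and 7.76 and mice 5 to 8 had 8.14, 8.36, 8.54 and 8.42, whereas mouse 4 had 9.82 and the EC16 mice had 9.93, 9.79, 10.09, 10.09 and 9.80. In EW16 Irak1 fell by 1.61 ± 0.29 (adjusted p = 0.00534), and with the narrow-range arrays left out it fell by 1.28 ± 0.26 (adjusted p = 0.00691). With 1 mouse left out the call was kept in 3 of 13 fits, at adjusted p of 1.98e-05 to 0.0204.

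Ikbkb encodes the catalytic subunit of the IkB kinase complex that acts in the canonical pathway. It had 8.31, 8.99 and 10.11 (lowest, median and highest) in DW16 mice, against 9.80, 9.90, 9.98, 9.97 and 10.11 in DC16 mice. The groups overlapped through DW16 mouse 8, and the difference of -0.95 ± 0.26 did not pass the threshold (adjusted p = 0.0205). Of its other 4 probe sets, 1432275_at had a difference of the opposite sign, 0.33 ± 0.10 (adjusted p = 0.0334), and the rest lay between -0.11 and 0.06. In EW16 mice Ikbkb had 8.45, 9.61 and 10.25 (lowest, median and highest), against 10.05, 10.07, 10.04, 9.99 and 9.90 in EC16 mice. These groups also overlapped, and the difference was -0.60 ± 0.26 (adjusted p = 0.153), with 0.04 to 0.16 for the other 4 probe sets.

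Among the subunits, Relb, a partner of p52 in the alternative pathway, had 7.26, 7.85 and 9.17 (lowest, median and highest) in DW16 mice, against 9.75, 9.76, 9.38, 9.60 and 9.42 in DC16 mice. It was the only member whose DW16 and DC16 values did not overlap, as was the case, in the lower direction, for 1.96% of all probe sets. Relb fell by 1.56 ± 0.29 (adjusted p = 0.00583). DW16 mice 8 and 9, at 9.16 and 9.17, were the nearest to DC16, and without the narrow-range arrays the difference was -0.42 ± 0.14 (adjusted p = 0.568). The call was kept in 3 of 14 fits that left out 1 mouse, those without DW16 mouse 1, 8 or 9, with adjusted p of 0.000427 to 0.0221.

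Rela, the p65 subunit that carries a transactivation domain, had 9.77, 10.16 and 12.11 (lowest, median and highest) in DW16 mice, against 12.34, 12.39, 11.89, 12.26 and 12.14 in DC16 mice. The highest of DW16 mice 1 to 7 was 10.33, more than 1 log2 unit below the lowest DC16 mouse, while mice 8 and 9 had 12.09 and 12.11. The difference was -1.69 ± 0.38 (adjusted p = 0.0107), just outside the threshold.

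Nfkb2, the precursor of p52, had 6.51, 7.42 and 8.93 (lowest, median and highest) in DW16 mice, against 9.13, 9.13, 8.77, 9.15 and 8.97 in DC16 mice. Its 2 probe sets differed by -1.46 ± 0.34 (adjusted p = 0.0118) and by -0.93 ± 0.23 (adjusted p = 0.0145). As for the other subunits, the 2 highest DW16 values were those of mice 8 and 9.

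In E mice the differences of the 3 subunits were also negative but did not pass the threshold. In EW16 mice Nfkb2 had 6.92, 7.91 and 9.19 (lowest, median and highest), against 9.05, 8.89, 9.57, 8.96 and 9.40 in EC16 mice, a difference of -1.36 ± 0.30 (adjusted p = 0.0138), and its other probe set differed by -0.46. For Rela and Relb the differences were -1.15 ± 0.40 (adjusted p = 0.0847) and -1.09 ± 0.33 (adjusted p = 0.0559). With the narrow-range arrays left out Relb fell by 0.55 ± 0.12 (adjusted p = 0.00985), and the differences of Nfkb2 and Rela were -0.98 ± 0.24 (adjusted p = 0.0156) and -0.48 ± 0.14 (adjusted p = 0.0321).

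Nfkbia encodes IkB alpha, which holds NF-kB in the cytoplasm and is itself induced by it. Its representative probe set had 13.55, 14.10 and 14.45 (lowest, median and highest) in DW16 mice, against 14.08, 14.09, 14.10, 14.23 and 14.10 in DC16 mice. Here the DW16 values lay on both sides of DC16, and the difference was -0.13 ± 0.15 (adjusted p = 0.546). This probe set is among the brightest of the array, at percentile 99.9 of all probe sets by mean level. Whether differences can be read fully at such a level was not tested. The other 4 probe sets of Nfkbia differed by -0.96 to -0.28 between DW16 and DC16, none of them called. After a further quantile normalization the difference of the representative was 0.26 ± 0.08 (adjusted p = 0.0364), with the sign turned.

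The 5 probe sets of Nfkbia did not move alike. In EW16 mice 1448306_at had 12.00, 12.10 and 11.57 in mice 1 to 3 and 11.76, 11.65, 11.71 and 11.82 in mice 5 to 8, while mouse 4 had 13.53. In EC16 mice it had 13.42, 13.56, 13.59, 13.30 and 13.55. Nfkbia by this probe set was thus low in 7 of 8 EW16 mice, narrow-range or not, and it fell by 1.46 ± 0.27 (adjusted p = 0.00583), a call kept in 3 of 13 fits that left out 1 mouse. The representative probe set of Nfkbia differed by -0.08 ± 0.14 in the same mice (adjusted p = 0.737), and the other 3 differed by -0.57, -0.55 and 0.04. Irak1 was similar in this respect, since its other 3 probe sets differed by only -0.30 to -0.01 between EW16 and EC16 and by -0.37 to -0.14 between DW16 and DC16. Which transcripts these probe sets read was not analysed here.

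**Figure D3:**
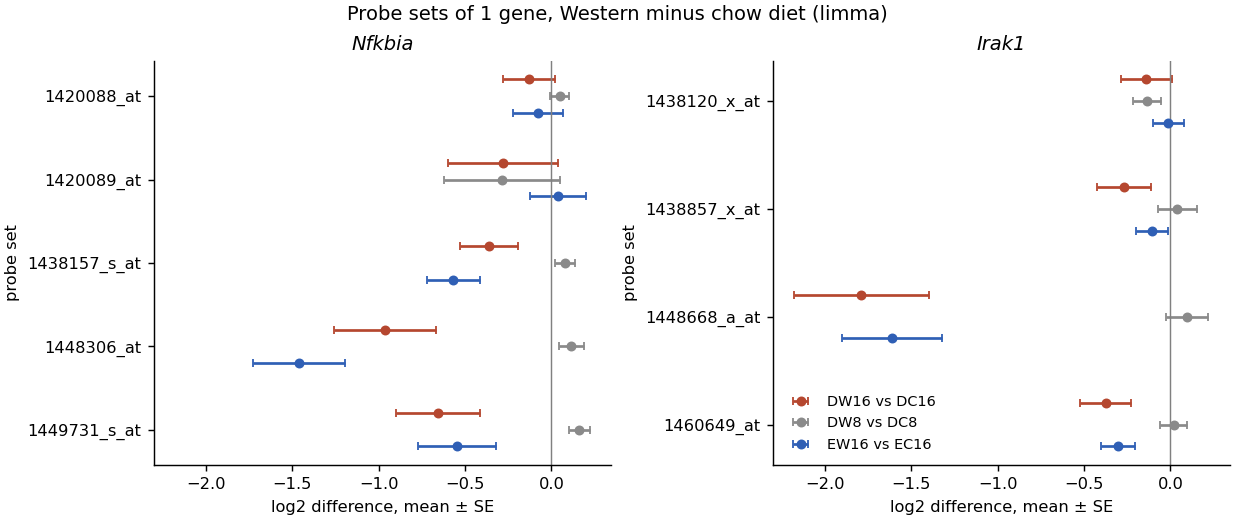
Log2 difference, Western minus chow (x axes, mean ± SE of the limma fit), for each probe set (y axes) of Nfkbia and Irak1 in DW16 vs DC16, DW8 vs DC8 and EW16 vs EC16. Within each gene 1 probe set stands apart, Nfkbia 1448306_at at -1.46 and Irak1 1448668_a_at at -1.61 in EW16 vs EC16.

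Nfkbiz encodes a nuclear IkB protein that modulates a subset of NF-kB targets, and Tnfaip3 encodes A20, a ubiquitin-editing enzyme that restrains the pathway. In DW16 mice Nfkbiz had 11.03, 11.73 and 12.55 (lowest, median and highest), against 12.49, 12.46, 11.94, 12.11 and 12.23 in DC16 mice. Tnfaip3 had 11.16, 12.00 and 12.98 (lowest, median and highest) in DW16 mice, against 12.85, 12.87, 12.57, 12.56 and 12.76 in DC16 mice. Both groups overlapped for both genes, and the differences were -0.59 ± 0.24 for Nfkbiz (adjusted p = 0.0836) and -0.89 ± 0.26 for Tnfaip3 (adjusted p = 0.027). The other probe sets differed by -0.86 and -0.27 for Nfkbiz and by -0.70 for Tnfaip3, none of them called.

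In E mice neither gene was called. EW16 mice 4 to 8 had Nfkbiz values of 12.75, 12.69, 12.67, 12.70 and 12.56, and EW16 mice 1 to 3 had 12.21, 11.18 and 11.04. The EC16 values were 12.37, 12.36, 12.25, 12.10 and 12.47. Over all 8 mice the difference was -0.09 ± 0.30 (adjusted p = 0.863), and with the narrow-range arrays left out it was 0.36 ± 0.08 (adjusted p = 0.0111). Tnfaip3 differed by -0.32 ± 0.34 over all EW16 mice (adjusted p = 0.548) and by 0.23 ± 0.09 with those arrays left out (adjusted p = 0.082). Over all EW16 mice the other probe sets differed by -0.73 and -0.09 for Nfkbiz and by -0.24 for Tnfaip3. The other Nfkbiz probe sets did not move alike in EW16 mice 4 to 8. There 1448728_a_at averaged 10.8, against 11.41 in EC16 mice, and 1457404_at averaged 7.795, against 7.485. Over all 24 probe sets, 2 were called in EW16 against EC16, both lower, where 2.66% of all probe sets were called, 2.39% lower and 0.271% higher. For no member did all EW16 values lie below all EC16 values, as they did for 3.39% of all probe sets. Leaving out the narrow-range arrays, 3 members were called, all lower, beside 7.02% of all probe sets.

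**Figure D4:**
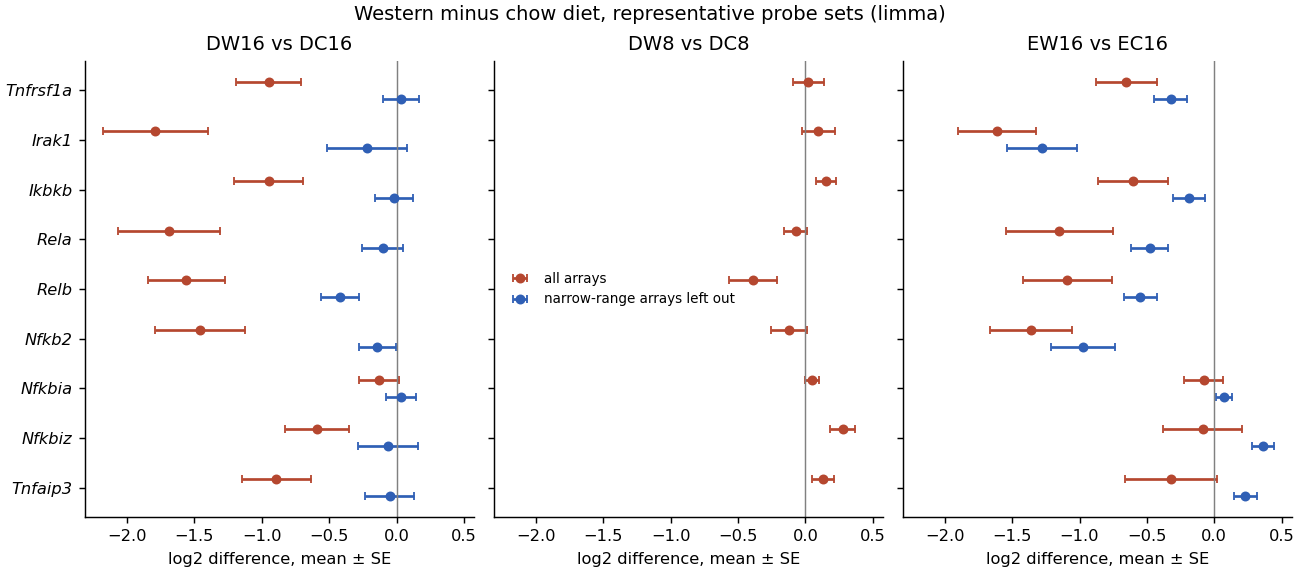
Log2 difference, Western minus chow (x axes, mean ± SE of the limma fit), of the 9 representative probe sets (y axis) in the 3 diet comparisons, with all arrays and with the narrow-range arrays left out. In DW16 vs DC16 the Rela difference is -1.69 with all arrays and -0.10 without the narrow-range ones, while in EW16 vs EC16 Irak1 stays at -1.28 without them.

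Markers of other cells were read on the same arrays. The 7 endothelial markers averaged 8.08 to 8.64 in DW16 mice 1 to 7 and 9.58 to 9.76 in mice 8 and 9, against 9.27 to 9.83 in DC16 mice. The 10 macrophage markers averaged 8.59 to 9.77 in DW16 and 8.90 to 10.01 in DC16 mice. The 7 stromal markers averaged 10.00 to 11.29 in DW16 and 11.02 to 11.59 in DC16 mice, and the 6 mesothelial markers 5.74 to 8.21 in DW16 and 6.47 to 7.98 in DC16 mice. In EW16 mice endothelial markers averaged 8.18 to 9.95, against 9.49 to 9.81 in EC16 mice, and mesothelial markers 6.10 to 7.53, against 7.40 to 8.55. Endothelial markers were thus low on the narrow-range arrays, and adipocyte markers were also lower there, with a small overlap in DW16. Adipocyte markers averaged 11.98 to 12.95 in DW16 mice 1 to 7 and 12.9 to 13.2 in mice 8 and 9. In EW16, adipocyte markers averaged 11.73 to 12.53 in mice 1 to 3 and 12.95 to 13.13 in mice 4 to 8. The highest stromal average was 10.97 in DW16 mice 1 to 7 and 11.29 in mice 8 and 9. In EW16 it was 11.21 in mice 1 to 3 and 11.4 in mice 4 to 8. Mesothelial markers averaged 5.74 to 6.89 in DW16 mice 1 to 7 and 7.42 to 8.21 in mice 8 and 9. In EW16 they averaged 6.10 to 6.21 in mice 1 to 3 and 6.51 to 7.53 in mice 4 to 8. For macrophage markers the values were 8.59 to 9.17 in DW16 mice 1 to 7 and 9.72 to 9.77 in mice 8 and 9. Not every list was low on every narrow-range array. Macrophage markers averaged 8.81 to 10.62 in EW16 mice 1 to 3 and 9.12 to 9.85 in EW16 mice 4 to 8, against 9.40 to 10.03 in EC16 mice. The 5 T cell markers averaged 5.62 to 6.27 in DW16 mice, against 5.48 to 5.86 in DC16 mice, with the highest value on a narrow-range array. Cd3e rose by 0.49 ± 0.10 in DW16 (adjusted p = 0.00789). Called lower in DW16 were the markers Ighm (-2.05, adjusted p = 0.00325), Lrrn4 (-1.59, adjusted p = 0.00683), Lyz2 (-1.17, adjusted p = 0.00993) and Pecam1 (-0.94, adjusted p = 0.00824). Without the narrow-range arrays, which left only DW16 mice 8 and 9, neither these nor Cd3e (0.36, adjusted p = 0.583) were called. Ighm then differed by -1.72 (adjusted p = 0.155), Lrrn4 by -0.51, Lyz2 by -0.26 and Pecam1 by -0.38. In EW16 against EC16 the mesothelial markers Upk3b, Krt19 and Wt1 were called lower, Upk3b also without those arrays. The 4 B cell markers averaged 5.82 to 6.85 in DW16 mice, against 6.70 to 6.97 in DC16 mice, and 6.00 to 7.51 in EW16 mice, against 6.68 to 7.40 in EC16 mice. Their part in the differences of the NF-kB genes was not tested.

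At 8 weeks of diet no member was called in DW8 against DC8, beside 1.08% of all probe sets (0.921% higher and 0.155% lower), and 4 of 24 had an unadjusted p under 0.05, against 19.1% of all. Relb had 9.71, 9.61, 9.43, 9.40 and 8.92 in DW8 mice, against 9.17, 9.93 and 10.19 (lowest, median and highest) in DC8 mice, a difference of -0.39 ± 0.18 (adjusted p = 0.255). Nfkbiz had 12.24, 12.46, 12.64, 12.64 and 12.56 in DW8 mice, against 12.10, 12.14 and 12.54 (lowest, median and highest) in DC8 mice. The Nfkbiz values overlapped, and the difference was 0.28 ± 0.09 (adjusted p = 0.11).

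With duration of the Western diet, more of the members passed. In DW16 against DW8 mice 6 of 24 were called, all lower, where 5.41% of all probe sets were called, 4.48% lower and 0.933% higher. They were Nfkb2 (-1.54 ± 0.34, adjusted p = 0.00816), Rela (-1.69 ± 0.37, adjusted p = 0.00854), Relb (-1.39 ± 0.30, adjusted p = 0.00738), Tnfrsf1a (-1.12 ± 0.24, adjusted p = 0.00744) and both probe sets of Tnfaip3 (-1.25 ± 0.26, adjusted p = 0.00659, and -0.98 ± 0.22, adjusted p = 0.00856). Rela was the representative whose values did not overlap, with at most 12.11 in DW16 mice against at least 12.15 in DW8 mice, as was the case, in the lower direction, for 2.57% of all probe sets. Each kept its call in 2 or 3 of the 14 fits that left out 1 mouse. Leaving out the narrow-range arrays, none was called, beside 0.00222% of all probe sets. In EW16 against EW8 mice 3 were called, where 1.57% of all probe sets were (1.43% lower and 0.142% higher). Irak1 (-1.50 ± 0.27, adjusted p = 0.00699) and Nfkbia by 1448306_at (-1.54 ± 0.25, adjusted p = 0.00587) were lower, and Nfkbia by 1420089_at was higher (0.90 ± 0.14, adjusted p = 0.00587). Each kept its call in 1 of 14 fits that left out 1 mouse. None of the 3 was called without the narrow-range arrays, beside 0.02% of all probe sets, with differences of -1.17 (adjusted p = 0.0191), -1.47 (adjusted p = 0.0168) and 0.81 (adjusted p = 0.0134).

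Nfkbia by 1420089_at was higher after the longer Western diet. It had 8.74, 9.07 and 9.71 (lowest, median and highest) in EW16 mice, against 8.03, 8.22 and 8.45 in EW8 mice, and 9.45, 9.13, 8.94, 8.90 and 9.10 in EC16 mice. In D mice it had 8.31, 8.88 and 9.74 (lowest, median and highest) in DW16 mice, against 8.19, 8.20, 7.85, 8.31 and 8.27 in DW8 mice. The chow groups of D mice were more scattered, at 8.50, 9.37, 8.88, 10.76 and 9.04 in DC16 mice and 7.78, 8.20 and 10.33 (lowest, median and highest) in DC8 mice. The DW16 values of this Nfkbia probe set all lay above those of DW8, and the EW16 values above those of EW8, as was the case for 1.59% and 0.608% of all probe sets, while DC16 and DC8 overlapped. The difference of this Nfkbia probe set was 0.86 ± 0.20 in DW16 against DW8 (adjusted p = 0.0113) and 0.86 ± 0.43 in DC16 against DC8 (adjusted p = 0.602), and 0.04 ± 0.16 in EW16 against EC16 (adjusted p = 0.888).

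Genotype was compared within diet and time. No member was called in DW16 against EW16, in DW8 against EW8 or in DC16 against EC16, where 0%, 0% and 0.00222% of all probe sets were called by limma. Of the 24 probe sets 3, 1 and 1 had an unadjusted p under 0.05, against 14.6%, 4.13% and 6.27% of all. The smallest p of a member was that of Nfkbiz 1457404_at in DW16 against EW16, with a difference of -0.92 ± 0.28 (adjusted p = 0.241). In DC16 against DC8 no member was called either, beside 0% of all probe sets, and 3 of the 24 probe sets had an unadjusted p under 0.05. The diet effect at 16 weeks did not differ detectably between D and E mice for any member (0 called by limma, 0% of all, 0 members at an unadjusted p under 0.05), with a difference of effects of -0.57 ± 0.44 for Tnfaip3 and -0.54 ± 0.58 for Rela. The diet effect in D mice, 16 minus 8 weeks, was also called for no member, beside 0.00444% of all probe sets. Of the 24 probe sets 15 had an unadjusted p under 0.05, against 27.7% of all. The largest difference was that of Irak1, -1.89 ± 0.45 (adjusted p = 0.0244).

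Other genes of the pathway were taken from lists ordered by role, each gene read by its representative probe set alone. In DW16 against DC16, 0 of 11 ligands, 0 of 12 receptors, 1 of 15 adaptors and receptor-proximal kinases, 0 of 9 genes of the IKK complex and its activators, 0 of 8 further subunits and IkB proteins, 0 of 12 negative regulators and 1 of 28 target genes were called, beside 3.43% of all probe sets. The called genes were Irak3, an inhibitory relative of Irak1 that fell by 1.19 ± 0.24 (adjusted p = 0.00805), and Ccl2, a monocyte chemoattractant that fell by 1.17 ± 0.24 (adjusted p = 0.00832). The median differences of the lists lay between -0.54 for the further subunits and -0.02 for the ligands. Immediate early genes, which respond to tissue handling and of which 27 were measured, had a median difference of -0.93, and 1 was called (Dusp2, -0.98 ± 0.18, adjusted p = 0.0053). Other probe sets of the listed genes were not counted. The paper's list of differentially expressed genes for DW16 against DC16, from limma and SAM, holds some of these. They include probe sets of the immediate early genes Klf4 and Klf6, of Nfkbib among the further IkB proteins and of the target Mmp9. Without the narrow-range arrays, which left only DW16 mice 8 and 9, no gene of these lists was called. Irak3, Ccl2 and Dusp2 then differed by -0.45, -0.27 and -0.37.

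In EW16 against EC16 the genes called were Ltbr, the lymphotoxin beta receptor of the alternative pathway (-1.39 ± 0.23, adjusted p = 0.00382), the adaptors Tradd (-0.64 ± 0.13, adjusted p = 0.00921) and Traf5 (-0.71 ± 0.11, adjusted p = 0.00302), and the target Lcn2 (-1.41 ± 0.28, adjusted p = 0.00792). After a further quantile normalization Tradd was no longer called (-0.47, adjusted p = 0.0723), and without the narrow-range arrays Lcn2 was not (-1.15, adjusted p = 0.0113). Of the 15 adaptors 2 were thus called, beside 2.66% of all probe sets, and 5 were called without the narrow-range arrays, 4 lower and 1 higher, beside 7.02% of all probe sets. In DW8 against DC8, Il1a, encoding interleukin 1 alpha, rose by 1.09 ± 0.13 (adjusted p = 0.00155). It was the only gene called on these 7 role lists at 8 weeks, and of the immediate early genes Nr4a2 rose by 1.01 ± 0.12 (adjusted p = 0.00155).

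**Figure D5:**
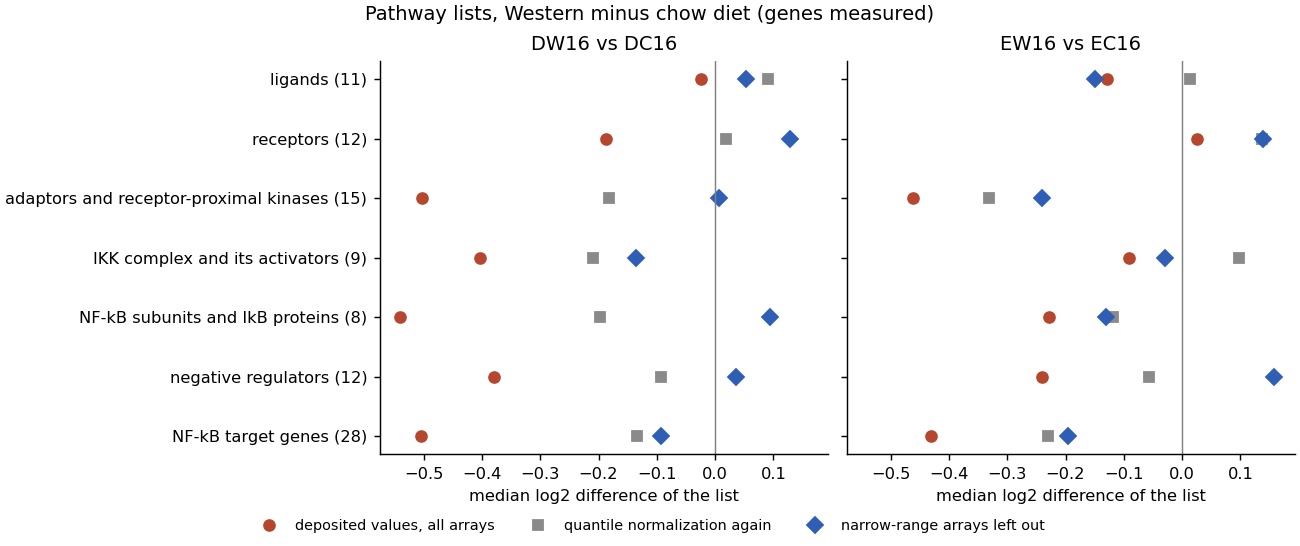
Median log2 difference, Western minus chow (x axes), of 7 lists of NF-kB pathway genes (y axis, number of genes measured in brackets), for DW16 vs DC16 and EW16 vs EC16, from deposited values with all arrays, after a further quantile normalization, and without the narrow-range arrays. In DW16 vs DC16 the target genes have medians of -0.50, -0.13 and -0.09 under the 3 settings.

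In DW16 against DW8, 8 of 28 target genes were called, all lower, beside 5.41% of all probe sets, 4.48% lower. They included Il6 (-1.32 ± 0.21, adjusted p = 0.0028), Csf1 (-1.46 ± 0.22, adjusted p = 0.00208), Vcam1 (-1.69 ± 0.26, adjusted p = 0.00245), Ccl2 (-1.42 ± 0.23, adjusted p = 0.00301), F3 (-1.06 ± 0.20, adjusted p = 0.0044) and Ptgs2 (-1.75 ± 0.32, adjusted p = 0.00454). Upstream of them Il1r1, the signaling receptor for interleukin 1, fell by 1.52 ± 0.19 (adjusted p = 0.0014), and Rel, a further subunit, fell by 0.82 ± 0.12 (adjusted p = 0.00208). Of 12 negative regulators 3 were called lower. Zc3h12a, an RNase that degrades inflammatory transcripts, differed by -1.65 ± 0.30 (adjusted p = 0.00433). Tax1bp1, an A20 partner, differed by -0.99 ± 0.21 (adjusted p = 0.00713), and Il1rn, the interleukin 1 receptor antagonist, by -1.66 ± 0.36 (adjusted p = 0.00771). Of 15 adaptors and receptor-proximal kinases 3 were called lower, Irak3 (-1.22, adjusted p = 0.00555), Peli1 (-0.56, adjusted p = 0.00589) and Birc3 (-0.87, adjusted p = 0.00991). Of 11 ligands Il1b was called lower (-1.07, adjusted p = 0.00927). The lists of 12 receptors and 8 further subunits had 1 call each, and the 9 IKK genes none. Of 27 immediate early genes 5 were called lower (Myc, Fosl1, Ccn1, Zfp36 and Ier5), with a median difference of -1.04 over the list. After a further quantile normalization the same 8 target genes were called, as were Il1r1, Zc3h12a and Tax1bp1, whereas Rel (-0.48, adjusted p = 0.0143), Il1rn, Irak3, Peli1, Birc3 and Il1b were not. Without the narrow-range arrays none of these genes was called. That fit kept only DW16 mice 8 and 9, and almost no probe set of the array was called in it. The differences of the genes called in the main fit then lay between -1.10 (Ptgs2) and -0.28 (Birc3), with -1.05 for Il1r1 and -0.64 for Rel.

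In EW16 against EW8, 1 gene each was called among the further subunits and IkB proteins, the receptors, the negative regulators, the target genes and the immediate early genes, and none among the adaptors, the IKK genes and the ligands, beside 1.57% of all probe sets. They were Nfkbib, which encodes IkB beta (-1.51 ± 0.22, adjusted p = 0.0057), Ltbr (-1.16 ± 0.215, adjusted p = 0.00749), Zc3h12a (-1.40 ± 0.24, adjusted p = 0.00645), Selp, encoding P-selectin (-1.34 ± 0.26, adjusted p = 0.00876), and Junb (-2.12 ± 0.40, adjusted p = 0.00778). Ltbr and Selp lost the call after a further quantile normalization (adjusted p = 0.0109 and 0.0656), and none of the 5 was called without the narrow-range arrays (adjusted p of 0.0123 to 0.023).

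Over the 35 arrays outside the narrow-range set, the genes with the most similar profiles were sought among the representatives of 18193 genes by Spearman correlation, as a description. The nearest to Nfkb2 were Tnip1, an A20-binding inhibitor (rho = 0.877), Rela (0.871) and Relb (0.867). Rela was nearest to Nfkb2, Tnip1 (0.843) and Relb (0.826), and Relb to Zbtb17 (0.868), Nfkb2 and Phrf1 (0.851). Nfkbiz was nearest to Jmjd1c (0.902), Fosl2 (0.879) and Elf1 (0.864), Tnfaip3 to Arhgef12 (0.832), Bdp1 (0.814) and Nup153 (0.811), and Nfkbia to Myh10 (0.758), Myo9a (0.735) and Gabpa (0.724). Irak1 was nearest to Vcp (0.802), Mmut (0.793) and Tmem80 (0.763), Tnfrsf1a to Selp (0.822), Pdlim1 (0.809) and Adgrg1 (0.808), and Ikbkb to Nbeal1 (0.807), Gak (0.798) and Mpp5 (0.788). All points share arrays and groups.

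Promoters were read because several of the genes are known targets of NF-kB itself. Whether these sequences have a part in the differences above was not tested. RefSeq windows of the 250 bases before the start site (GRCm38.p6) matched 6 of the 10 genes with 10 windows: Nfkb2, Rela, Nfkbia, Tnfaip3, Irak1 and Tnfrsf1a. Patterns were searched on both strands. GGGANNTTCC was found in 2 of the 6 genes, Nfkbia and Nfkb2, and in 1.21% of all 32851 windows, or 1.36% of all 27025 genes. The looser GGGNNNNNCC was found in all 6 genes and in 45.8% of windows, or 48.7% of all genes. The NF-kB consensus decamer was added only after the matches of these patterns had been seen and the windows read. It was found in 3 of the 6 genes, Nfkb2, Nfkbia and Tnfaip3, and in 3.9% of windows, or 4.46% of all genes. Adding it raised the count of genes from 2 to 3. In these 10 windows each match to GGGANNTTCC was also a match to the decamer, and every match to the decamer is one to GGGNNNNNCC. The letters are a description of sequence, not of binding. The windows of 2 inhibitors are shown. Nfkbia has 1 match that ends 20 bases before the start, and Tnfaip3 has 2 that end 116 and 3 bases before it. The other Tnfaip3 window, not shown, held no match to the decamer. The window of Irak1, which held no match to the decamer, is shown beside them. Capitals mark the decamer in Nfkbia (chr12:55492648-55492897, minus strand), Tnfaip3 (chr10:19015411-19015660, minus strand) and Irak1 (chrX:74023922-74024171, minus strand), written 5′ to 3′.
Nfkbia: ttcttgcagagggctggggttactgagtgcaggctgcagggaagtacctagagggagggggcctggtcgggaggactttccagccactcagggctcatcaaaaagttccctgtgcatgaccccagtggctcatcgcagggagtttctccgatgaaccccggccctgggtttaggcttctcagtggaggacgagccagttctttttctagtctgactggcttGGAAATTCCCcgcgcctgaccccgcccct
Tnfaip3: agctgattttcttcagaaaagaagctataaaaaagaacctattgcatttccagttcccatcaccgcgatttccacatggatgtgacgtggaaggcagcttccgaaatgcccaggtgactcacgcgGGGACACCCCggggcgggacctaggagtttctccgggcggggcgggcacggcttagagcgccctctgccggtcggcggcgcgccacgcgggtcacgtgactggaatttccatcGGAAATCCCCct
Irak1: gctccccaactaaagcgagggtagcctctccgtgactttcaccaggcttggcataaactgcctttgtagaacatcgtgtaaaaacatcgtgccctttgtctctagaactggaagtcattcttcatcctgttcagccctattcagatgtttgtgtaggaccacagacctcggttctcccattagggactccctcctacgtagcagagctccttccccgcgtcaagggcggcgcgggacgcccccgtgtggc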

How the data were processed

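Adipocyte RNA was run on Affymetrix MG430-2.0 arrays, and the authors made log2 values per probe set with RMA express, which corrects background, quantile-normalizes and summarizes probes. Its version, and which arrays it processed jointly, are not given in the sources used here. All per-sample columns were used. Their number limits the precision, and p-values measure the spread between mice. No 2 arrays held identical values.

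Groups came from the labels. Each comparison was fitted on its own groups in limma 3.58.1 under R 4.3.3, and p-values were adjusted by Benjamini and Hochberg over 45037 probe sets at a threshold of 0.01, after the study's methods. SAM, their second test, was not run here. Interactions were fitted over 4 groups. The fit was tested on simulated data. The members, lists and tests were chosen with earlier results of these data known. Members were described by their representative probe sets, with the others given by range or value in the 16-week diet comparisons and elsewhere where called. Pathway and immediate early genes called in a comparison were named, up to 6 per list by smallest adjusted p, and for likeness the 3 nearest genes. The rule also asked for the 3 smallest p where a list had no call, and these were left out.

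Genes were named from the array annotation. Promoters are from RefSeq (GRCm38.p6). 2 sequence patterns were searched first, and the NF-kB consensus decamer was added after their matches and the windows had been seen. All 3 are reported. Alternatives were quantile normalization again, median centring, array SD as a covariate, narrow-range arrays left out, one spread over 7 groups, trend and robust moderation, probe sets above the median level, an adjusted p of 0.05, leaving out each mouse, and a block for replicate number. Counts for the pathway lists under 2 of these were added after seeing the data. Python 3.11.15, NumPy 2.4.6, pandas 2.3.3, SciPy 1.17.1 and Matplotlib 3.10.9 were used.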

Additional observations from a re-analysis of the deposited data

Results flagged for a closer look

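In 63 sets of values (9 representative probe sets in 7 groups), 6 had 1 mouse far from the others by Dixon's criterion at 95%, which chance alone meets in about 1 of 20 sets. Irak1 was 9.82 in EW16 mouse 4, where the next highest of 8 mice was 8.54. Irak1 was also high in DC16 mouse 4, at 10.87 with the next at 10.01, and the same mouse was high for Nfkbia, at 14.23 with the next at 14.10. Nfkb2 was low in DW8 mouse 5, at 8.86 with the next at 9.13, and Rela was high in DW8 mouse 3, at 12.36 with the next at 12.19. Tnfaip3 was low in DC8 mouse 7, at 12.65 with the next at 12.92.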

How the results depend on the processing

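The number of the 24 member probe sets called moved with most settings in the comparisons that involve DW16 or EW16. In DW16 against DC16 (2 called) it was 1 after a further quantile normalization, 0 with the array SD as a covariate, 0 without the narrow-range arrays, 11 with one spread over 7 groups, 4 with trend and robust moderation, 6 among brighter probe sets and 11 at an adjusted p of 0.05. In EW16 against EC16 (2 called) it was 1 after quantile normalization, 1 with the SD covariate, 5 with one spread and 4 at 0.05. In DW16 against DW8 (6 called) it was 0 with the SD covariate, 0 without the narrow-range arrays, 13 with one spread, 11 among brighter probe sets and 17 at 0.05. In EW16 against EW8 (3 called) it was 5 with median centring, 0 with the SD covariate, 0 without the narrow-range arrays, 7 with one spread and 8 at 0.05. For the diet effect in D mice, 16 minus 8 weeks (0 called), it was 7 at 0.05. Nfkbiz in EW16 against EC16, not called at -0.09 (adjusted p = 0.863), was 0.56 (adjusted p = 0.00641) with the SD covariate. The causes were not tested.

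Leaving out each mouse in turn gave 0 to 9 of the 24 probe sets called in DW16 against DC16, 0 to 6 in EW16 against EC16, 0 to 15 in DW16 against DW8, 0 to 8 in EW16 against EW8 and 0 to 12 for the diet effect, 16 minus 8 weeks. The highest counts came without DW16 mouse 8 (9, 15 and 12) and without EW16 mouse 4 (6 and 8). In DW16 against DC16 no member was called without any 1 of 11 of the 14 mice, and Relb kept its call only without DW16 mouse 1, 8 or 9. Each called member kept its direction.

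Of all called probe sets, the share that was higher was 23.2% as deposited and 47.9% after quantile normalization in DW16 against DC16, 10.2% and 36.1% in EW16 against EC16, 17.2% and 48.8% in DW16 against DW8, and 9.07% and 25% in EW16 against EW8.

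The labels do not say that replicate numbers pair the mice, and the main fits treated the mice as unpaired. In no comparison did every same-numbered pair correlate above 0.1, which does not show that pairing is absent. The pairs above 0.1 went from 0 of 5 (DW8 against DC8, DW16 against DW8) to 5 of 8 (DW16 against EW16). The block fit kept only replicate numbers present in every group compared. In DW16 against DC16, in DW16 against DW8 and for the diet effect it used DW16 mice 1 to 5, all narrow-range. It left out DW16 mice 8 and 9, so these counts differ from the main ones in the mice used as well. With the replicate block the member probe sets called were 12 in DW16 against DC16, 0 in EW16 against EC16, 14 in DW16 against DW8, 0 in EW16 against EW8 and 11 for the diet effect, 16 minus 8 weeks. In the other comparisons the block left the count at 0.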
